A study of Mus musculus with 8 samples.

Results

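The methionine, betaine and transsulfuration enzymes are a set of 9 genes named one by one: Mat1a, Gnmt, Pemt, Ahcy, Bhmt, Bhmt2, Shmt1, Cbs and Cth. All 9 of the 9 were found by symbol among the 55487 genes of the count table, and all 9 passed the filter on low counts with which 13312 genes were kept for testing. They were measured by bulk RNA sequencing of poly(A) RNA from mouse liver; the animals were males of the inbred C57Bl/6J strain, roughly 10 weeks old. The sorbate group holds 4 libraries, from mice that received 17 mg of potassium sorbate, a food preservative, by oral gavage. The control group holds 4 libraries, from mice that received water by gavage. All livers were taken 4 hours after the gavage, and no genotype or further agent is named for either group. Whether each library comes from its own animal is not stated, and p-values cover only the variation among the 8 libraries.

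In the methionine cycle, methionine is activated to S-adenosylmethionine, the methyl donor of the cell, which becomes S-adenosylhomocysteine when a methyl group is handed on, and is then split to homocysteine. Homocysteine is either remethylated to methionine, with a methyl group from betaine or from folate, or passed through transsulfuration to cystathionine and cysteine, a building block of glutathione. The liver carries most of this turnover, and its hepatocytes are the main site of betaine-dependent remethylation.

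The libraries held 15773932 to 25844731 counts each. Member counts ran from 2221, for Shmt1 in control 4, to 127987, for Bhmt in control 3. Control 2 stood apart from the other controls. On the first principal component, which carried 53.6% of the variance of log2 levels, it lay at 15.4, whereas sorbate livers spanned 21.9 to 37.8 and the other controls −49.1 to −42.1. The member fold changes, the ratios and the counts of called list genes were therefore also computed without it. Control 2 was singled out after its position was seen. Leaving out the control nearest to the sorbate livers tends to widen the difference between the groups. Values and calls without control 2 are therefore descriptions and lend no further support to a change. Levels are given as CPM, read counts scaled to a common library size by trimmed mean of M-values (TMM) factors.

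Of the 9 enzyme genes, 2 rose with sorbate (Ahcy and Cth), 2 fell (Bhmt and Cbs), and 5 did not pass the test. A gene was called where its p in edgeR's quasi-likelihood test, adjusted over all 13312 genes by the Benjamini-Hochberg method, was under 0.05. The 4 called members are 44.4% of the list, against 12.4% of all genes tested, with 6.14% of all genes higher and 6.3% lower. The sorbate and control libraries did not overlap in 5 members, against 17.7% of all genes tested. The median log2 fold change, sorbate over control, was −0.00 over the members and −0.02 over all tested genes, and the median of its absolute size was 0.29 against 0.26. Without control 2, 3 members were called higher and 2 lower, where 29.3% of all 13559 genes then tested were called (15.1% higher and 14.1% lower), a larger share than with all libraries. The members were chosen with results of these data known, so these shares describe the list and carry no test.

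**Figure D1:**
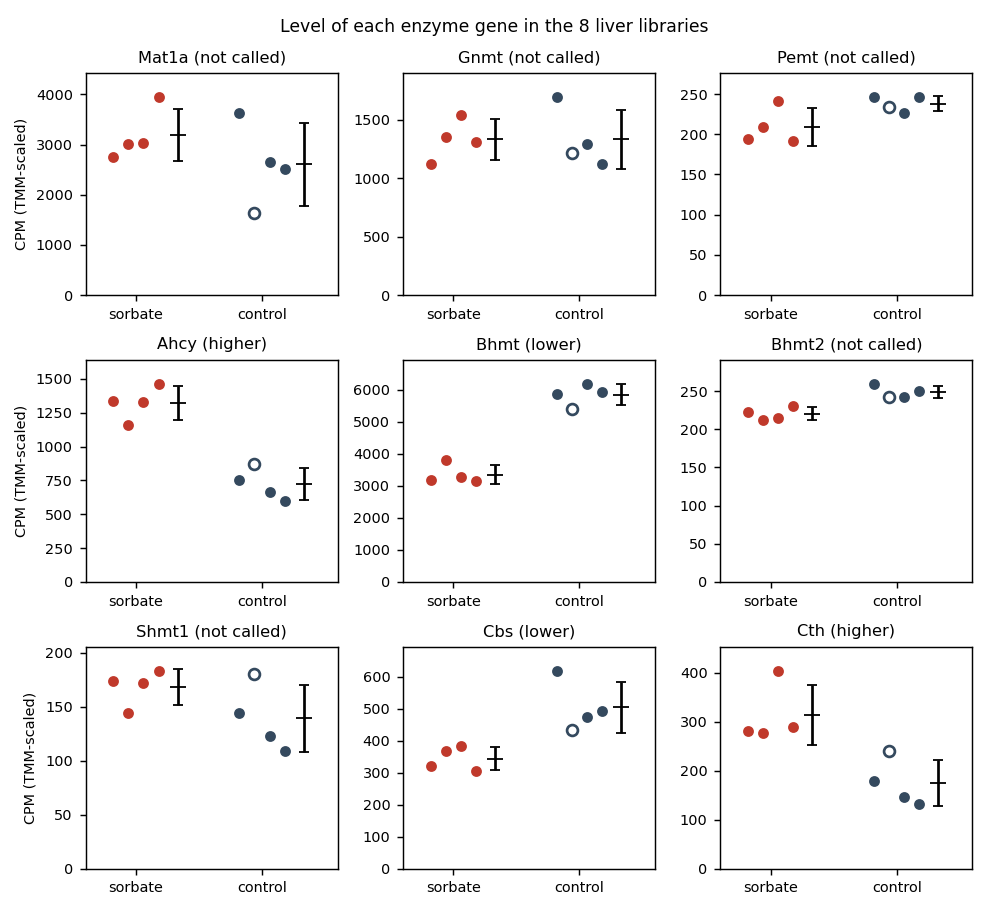
Level of each of the 9 enzyme genes in CPM (linear axis from 0), with 1 point per library, sorbate in red and control in dark blue, control 2 as an open circle, and the mean ± SD of each group of 4 as a bar. Ahcy and Cth lie higher and Bhmt and Cbs lower in all 4 sorbate libraries than in any control library; Bhmt2 is also separated, by a small margin.

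The promoters of 3 of the called genes are shown, with that of Bhmt2, the genomic neighbour and paralog of Bhmt, to set the start regions of the pair side by side. They run from 250 bases before to 50 bases after the RefSeq start site, 5′ to 3′ on the gene's strand (GRCm38.p6), which is the minus strand for all 4. Capitals mark AGGTCA, the core element of nuclear receptors, CCAAT, the CCAAT box, and CACGTG, the E-box. A match on the opposite strand reads TGACCT or ATTGG, and CACGTG is its own complement. The windows lie at chr13:93637709-93638008 (Bhmt), chr13:93674253-93674552 (Bhmt2), chr2:155074448-155074747 (Ahcy) and chr17:31637156-31637455 (Cbs).
Bhmt: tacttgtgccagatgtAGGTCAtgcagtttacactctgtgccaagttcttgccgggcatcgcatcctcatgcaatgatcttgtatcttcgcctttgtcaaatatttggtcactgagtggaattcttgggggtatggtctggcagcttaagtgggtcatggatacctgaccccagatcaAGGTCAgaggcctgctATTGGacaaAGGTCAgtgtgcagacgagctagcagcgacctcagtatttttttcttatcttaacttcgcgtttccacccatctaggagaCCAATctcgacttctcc
Bhmt2: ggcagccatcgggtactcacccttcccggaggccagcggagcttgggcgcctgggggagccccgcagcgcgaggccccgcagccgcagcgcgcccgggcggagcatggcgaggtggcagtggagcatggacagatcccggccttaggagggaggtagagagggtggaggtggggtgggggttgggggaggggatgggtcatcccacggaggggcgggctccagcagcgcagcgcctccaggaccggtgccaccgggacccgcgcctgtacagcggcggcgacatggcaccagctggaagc
Ahcy: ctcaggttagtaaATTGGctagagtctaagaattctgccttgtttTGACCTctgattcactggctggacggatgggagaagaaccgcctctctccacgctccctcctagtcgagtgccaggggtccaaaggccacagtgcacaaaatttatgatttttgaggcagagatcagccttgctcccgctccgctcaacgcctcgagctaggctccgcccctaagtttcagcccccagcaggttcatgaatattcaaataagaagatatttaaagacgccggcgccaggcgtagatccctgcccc
Cbs: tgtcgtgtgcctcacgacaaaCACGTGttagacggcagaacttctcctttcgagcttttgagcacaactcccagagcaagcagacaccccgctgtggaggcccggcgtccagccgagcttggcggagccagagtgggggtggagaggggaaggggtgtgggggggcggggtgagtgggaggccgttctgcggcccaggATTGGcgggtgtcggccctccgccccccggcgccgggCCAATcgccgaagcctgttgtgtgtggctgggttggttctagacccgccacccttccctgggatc

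The Bhmt window holds 3 copies of AGGTCA, beginning at positions −234, −72 and −47 from the RefSeq start site. Of 32851 RefSeq promoters of the same length, 16.3% hold at least 1 copy and 0.183% hold 3 or more. The GENCODE gene begins farther upstream, at 93637961, so the copies at −72 and −47 lie inside its span. The Bhmt window also holds 2 CCAAT motifs, which 37.4% of promoters have. The Bhmt2 window holds none of the motifs searched and has a GC content of 73.7%, against 48% in the Bhmt window. The Bhmt2 window also spans the start of Dmgdh, a gene on the opposite strand, at 93674433. The Ahcy window holds 1 AGGTCA and 1 CCAAT, as does the window of Gnmt, which was not called and is not shown. The Shmt1 window and a Pemt window, also of uncalled genes and not shown, each hold a CCAAT. The Cbs window holds 2 CCAAT motifs and 1 CACGTG, beginning at position −229, a motif found in 7.15% of promoters. TATAAA (13.6% of promoters) and the D-box TTANGTAA (2.32%), searched likewise on both strands, were in none of the 4 windows shown. The motifs did not overlap each other in these windows. The motif list and the windows shown were chosen after the values were seen, and a match describes letters only.

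Betaine-dependent remethylation held the called member with the highest counts. Bhmt, betaine-homocysteine S-methyltransferase (ENSMUSG00000074768, chr13:93616675-93637961, minus strand, GRCm38), transfers a methyl group from betaine to homocysteine. It had 3182, 3799, 3289 and 3137 CPM in sorbate livers, against 5856, 5411, 6188 and 5935 CPM in control livers. Every sorbate library lay below every control library, with a wide gap between the groups. The means were 3352 ± 305 CPM with sorbate and 5848 ± 324 CPM in control (SD, n = 4 each), a log2 fold change of −0.80 (SE 0.14, 95% interval −1.12 to −0.48, edgeR adjusted p = 0.007655). Bhmt ranked 26 among all genes by its mean level in control livers. Its call held in all 17 alternative settings, with log2 fold changes between −0.87 and −0.68, and at −0.83 without control 2.

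Bhmt2 (ENSMUSG00000042118, chr13:93655720-93674302, minus strand) encodes a related methyltransferase that uses S-methylmethionine as methyl donor and lies beside Bhmt. It had 222.9, 212.7, 215.5 and 231.2 CPM with sorbate, against 259.6, 242.3, 242.7 and 250.4 CPM in control. The groups did not overlap, but the difference was small and did not pass the test over all genes (log2 fold change −0.17, SE 0.10, 95% interval −0.39 to 0.04, edgeR adjusted p = 0.2571). The ratio of Bhmt to Bhmt2 within a library, which does not depend on how libraries are scaled, was 14.3, 17.9, 15.3 and 13.6 in sorbate livers, against 22.6, 22.3, 25.5 and 23.7 in control livers. On the log2 scale it differed by −0.63, sorbate minus control. The exact two-sided permutation p was 0.0286, the smallest that 4 against 4 libraries can give, and 0.0571 after adjustment over the 4 ratios examined. The gap in Bhmt was wide against the spread of Bhmt2 over the libraries, so the ratio had to separate the groups. Its permutation p was thereby fixed at its smallest value and adds nothing to the single-gene results.

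Dmgdh, whose enzyme removes the next methyl group from dimethylglycine, the product of the Bhmt reaction, begins beside Bhmt2 on the opposite strand (chr13:93674433-93752833, plus strand). Its level was 510.0 ± 48.9 CPM with sorbate and 379.1 ± 60.5 CPM in control (SD, n = 4 each), without overlap between the groups (log2 fold change 0.43, edgeR adjusted p = 0.07165, not called). The 3 neighbouring genes thus had log2 fold changes of −0.80, −0.17 and 0.43.

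Ahcy, S-adenosylhomocysteine hydrolase (ENSMUSG00000027597, chr2:155059310-155074497, minus strand), splits S-adenosylhomocysteine, an inhibitor of methyltransferases, into adenosine and homocysteine. It had 1335, 1162, 1330 and 1463 CPM in sorbate livers, against 752, 873, 661 and 600 CPM in control livers. The lowest sorbate library lay above the highest control library, which was control 2. The means were 1323 ± 123 CPM with sorbate and 722 ± 119 CPM in control (SD, n = 4 each), a log2 fold change of 0.87 (SE 0.15, 95% interval 0.54 to 1.21, edgeR adjusted p = 0.006407). The call held in all 17 alternatives, with log2 fold changes from 0.71 to 0.99, and with 0.99 without control 2.

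Ahcy and Bhmt share sequence with processed copies elsewhere in the genome, and how reads with several matches were counted is not given in the sources used here. Of the 50-base words in the Ahcy transcripts, 68.7% also occur in transcripts of other genes, mostly in the pseudogene Gm4737 (66%). Of those of Bhmt, 26.1% do, mostly in the pseudogene Gm5096 (24.1%), while only 0.174% occur in Bhmt2. The counts assigned to these copies moved the same way as their parents: Gm4737 had 216.0 ± 19.7 CPM with sorbate and 113.1 ± 20.99 CPM in control, a log2 fold change of 0.93 (edgeR adjusted p = 0.003857). Gm5096 had 224.7 ± 31.8 CPM with sorbate and 402.9 ± 22.4 CPM in control, a log2 fold change of −0.84 (edgeR adjusted p = 0.003252). With the copies' counts added to the parent gene, an alternative chosen after seeing the data, the log2 fold change was 0.88 for Ahcy (edgeR adjusted p = 0.006552) and −0.81 for Bhmt (edgeR adjusted p = 0.00789). Part of Bhmt (187 exon bases) also overlaps the antisense gene Gm15622.

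Transsulfuration runs through 2 enzymes in sequence, and their genes moved in opposite directions. Cbs, cystathionine beta-synthase (ENSMUSG00000024039, chr17:31608894-31637238, minus strand), joins homocysteine to serine. It had 321.5, 368.9, 382.9 and 305.1 CPM in sorbate livers, against 619.3, 433.3, 475.8 and 492.6 CPM in control livers, with all sorbate libraries below all controls. The means were 344.6 ± 37.2 CPM with sorbate and 505.3 ± 80.0 CPM in control (SD, n = 4 each), a log2 fold change of −0.55 (SE 0.14, 95% interval −0.87 to −0.24, edgeR adjusted p = 0.03135). The direction held in all 16 alternatives (−0.61 to −0.40), but the call held in 7 of them and was lost on leaving out any single library other than control 2 (edgeR adjusted p up to 0.1006). Without control 2 it was −0.61 (edgeR adjusted p = 0.006152).

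Cth, cystathionine gamma-lyase (ENSMUSG00000028179, chr3:157894248-157925077, minus strand), cleaves cystathionine to cysteine and can also release hydrogen sulfide. It had 280.0, 277.4, 403.6 and 289.7 CPM in sorbate livers, against 178.5, 239.9, 147.1 and 132.8 CPM in control livers. Sorbate 3 was far above the other sorbate libraries, and control 2 was the highest control. The means were 312.7 ± 60.9 CPM with sorbate and 174.6 ± 47.5 CPM in control (SD, n = 4 each), a log2 fold change of 0.84 (SE 0.20, 95% interval 0.40 to 1.28, edgeR adjusted p = 0.02267). All 16 alternatives gave a positive value (0.58 to 1.04), and 10 kept the call. It was lost without sorbate 3 (0.70, edgeR adjusted p = 0.06513), sorbate 4, control 1, control 3 or control 4, and was 1.04 without control 2 (edgeR adjusted p = 0.0007236).

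The ratio of Cth to Cbs was 0.871, 0.752, 1.05 and 0.950 in sorbate livers, against 0.288, 0.554, 0.309 and 0.270 in control livers. Control 2 was again the control library nearest to the sorbate range. On the log2 scale the ratio differed by 1.41, sorbate minus control (exact two-sided permutation p = 0.0286, 0.0571 after adjustment over the 4 ratios), and by 1.64 without control 2. Its difference stayed between 1.30 and 1.64 on leaving out each library in turn. Every sorbate library lay above every control for Cth and below every control for Cbs, so the ratio had to separate the groups. The permutation p was thereby fixed at its smallest value and adds nothing to the single-gene results.

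**Figure D2:**
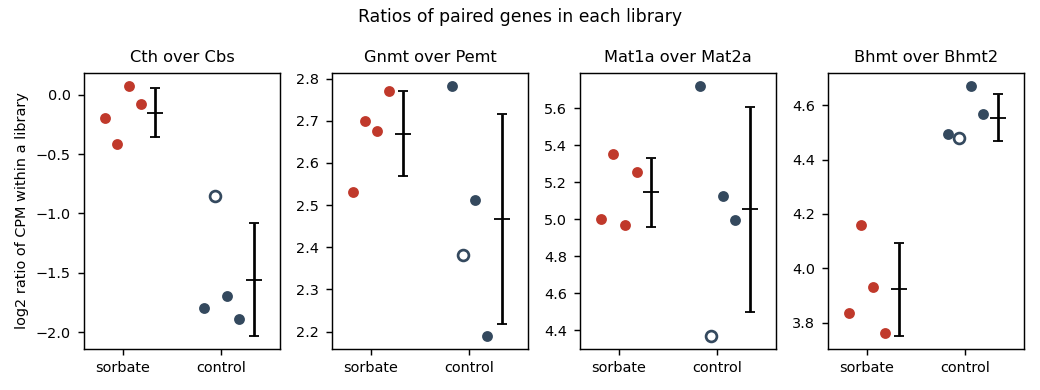
Log2 ratio of CPM between paired genes within each library, 1 point per library, sorbate in red and control in dark blue, control 2 as an open circle, with the mean ± SD of each group of 4; each panel has its own axis, which does not start at 0. Cth over Cbs and Bhmt over Bhmt2 separate the groups, while Gnmt over Pemt and Mat1a over Mat2a overlap.

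The member genes for making and spending S-adenosylmethionine, Mat1a, Gnmt and Pemt, did not pass the test. Mat1a (ENSMUSG00000037798, chr14:41105035-41124412, plus strand) encodes the liver form of methionine adenosyltransferase. It had 2754, 3012, 3030 and 3948 CPM with sorbate, against 3633, 1630, 2645 and 2506 CPM in control, with control 1 inside the sorbate range and control 2 lowest. Its log2 fold change was 0.29 (SE 0.23, 95% interval −0.22 to 0.80, edgeR adjusted p = 0.431), and it was 0.13 without control 2. Over the 16 alternatives it ran from 0.13 to 0.70, and none called it. The highest value came with 1 surrogate variable as a covariate (edgeR adjusted p = 0.09492). Mat2a, the form found in most other tissues, had 89.9 ± 12.9 CPM with sorbate and 75.5 ± 4.62 CPM in control (SD, n = 4 each; log2 fold change 0.25, edgeR adjusted p = 0.192). The log2 ratio of Mat1a to Mat2a differed by 0.09, sorbate minus control (exact permutation p = 0.743, adjusted p = 0.743), and by −0.14 without control 2.

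Gnmt, glycine N-methyltransferase (ENSMUSG00000002769, chr17:46725664-46729168, minus strand), disposes of surplus S-adenosylmethionine by methylating glycine. It had 1120, 1355, 1546 and 1309 CPM with sorbate, against 1696, 1220, 1293 and 1123 CPM in control, so that control 1 was the highest of all 8 libraries. The means of 1332 ± 175 CPM and 1333 ± 252 CPM (sorbate and control, SD, n = 4 each) gave a 95% interval of the log2 fold change from −0.37 to 0.37 (edgeR adjusted p = 0.9987). Pemt (ENSMUSG00000000301, chr11:59970614-60046489, minus strand) methylates phosphatidylethanolamine to phosphatidylcholine. It had 193.6, 208.5, 242.0 and 191.7 CPM with sorbate, against 246.4, 234.2, 226.4 and 246.2 CPM in control. In 3 sorbate libraries it lay below every control and in sorbate 3 within their range, with a log2 fold change of −0.19 (SE 0.11, 95% interval −0.43 to 0.06, edgeR adjusted p = 0.2845). The log2 ratio of Gnmt to Pemt differed by 0.20, sorbate minus control (exact permutation p = 0.2, adjusted p = 0.267).

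Shmt1, the cytosolic serine hydroxymethyltransferase (ENSMUSG00000020534, chr11:60788104-60811718, minus strand), loads folate with one-carbon units from serine. It had 173.6, 144.1, 171.7 and 183.2 CPM with sorbate, against 144.5, 180.1, 122.7 and 109.3 CPM in control. The groups overlapped: control 2, the highest control, lay near the top of the sorbate range, and sorbate 2 lay just below control 1. The log2 fold change was 0.27 (SE 0.16, 95% interval −0.07 to 0.62, edgeR adjusted p = 0.2746). Without control 2 it was 0.43 and passed the test (edgeR adjusted p = 0.02629). Over the 16 alternatives the Shmt1 value ran from 0.06 to 0.43, and 2 of them called it. In the control group the libraries stood in the same order, control 2, control 1, control 3 and control 4 from high to low, for Shmt1, Ahcy and Cth. Of its exon bases, 184 overlap those of Smcr8 on the opposite strand.

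**Figure D3:**
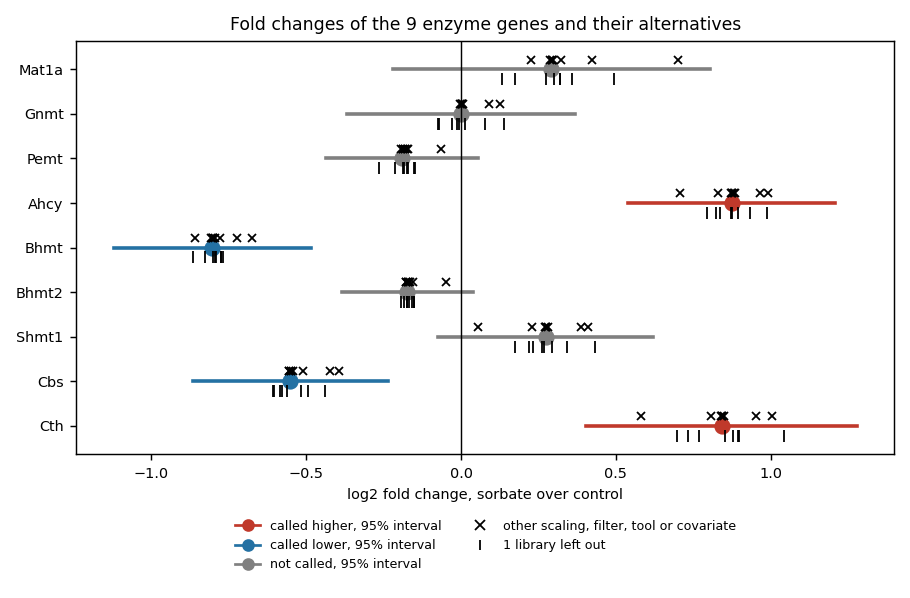
Log2 fold change, sorbate over control, of the 9 enzyme genes with its 95% interval (edgeR, n = 4 each), called higher in red, called lower in blue and not called in grey; crosses give other scalings, filters, tools or covariates and ticks the values with 1 library left out. Bhmt and Ahcy stay far from 0 in every setting, while the marks of Gnmt fall on both sides of 0.

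Per kilobase of exon, the order of the mean levels differed between the groups, and Cth moved by the most places. In sorbate livers Gnmt was highest at 1105 ± 145 CPM per kb, followed by Mat1a (919 ± 151), Bhmt (582 ± 53.0) and Ahcy (472 ± 44.0), and below these by Cth (112 ± 21.8), Pemt (99.3 ± 11.1), Bhmt2 (89.4 ± 3.36), Cbs (46.0 ± 4.97) and Shmt1 (43.3 ± 4.33). In control livers Gnmt (1105 ± 209) and Bhmt (1016 ± 56.2) came first, followed by Mat1a (751 ± 237), Ahcy (257 ± 42.4), Pemt (113 ± 4.66), Bhmt2 (101 ± 3.30), Cbs (67.5 ± 10.7), Cth (62.5 ± 17.0) and Shmt1 (35.8 ± 7.97), all as SD with n = 4. The neighbours Gnmt and Mat1a, Cth and Pemt, Pemt and Bhmt2, and Cbs and Shmt1 in sorbate livers lay within the sum of their SDs of each other, as did Gnmt and Bhmt, Bhmt and Mat1a, and Cbs and Cth in control livers. These levels per length are descriptions and were not tested between genes.

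The pathways that feed and drain the cycle were described with 7 lists of 79 further genes, of which 76 passed the filter. Among them 11 rose, 9 fell and 56 did not pass the test, 26.3% called against 12.4% of all genes. The median log2 fold change over the 76 was 0.08. Of the 20 calls, 6 held on leaving out each library in turn, among them Chka, Slc44a1, Fpgs, Inmt and Adi1, and the other 14 were lost in 5 or more of the 8 leave-outs. With 1 surrogate variable as a covariate, the call of Adi1 was lost (0.45, edgeR adjusted p = 0.05687), as were the calls of those 14. Without control 2, 16 of the 76 were called higher and 13 lower, against the 29.3% of all genes called at that setting.

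**Figure D4:**
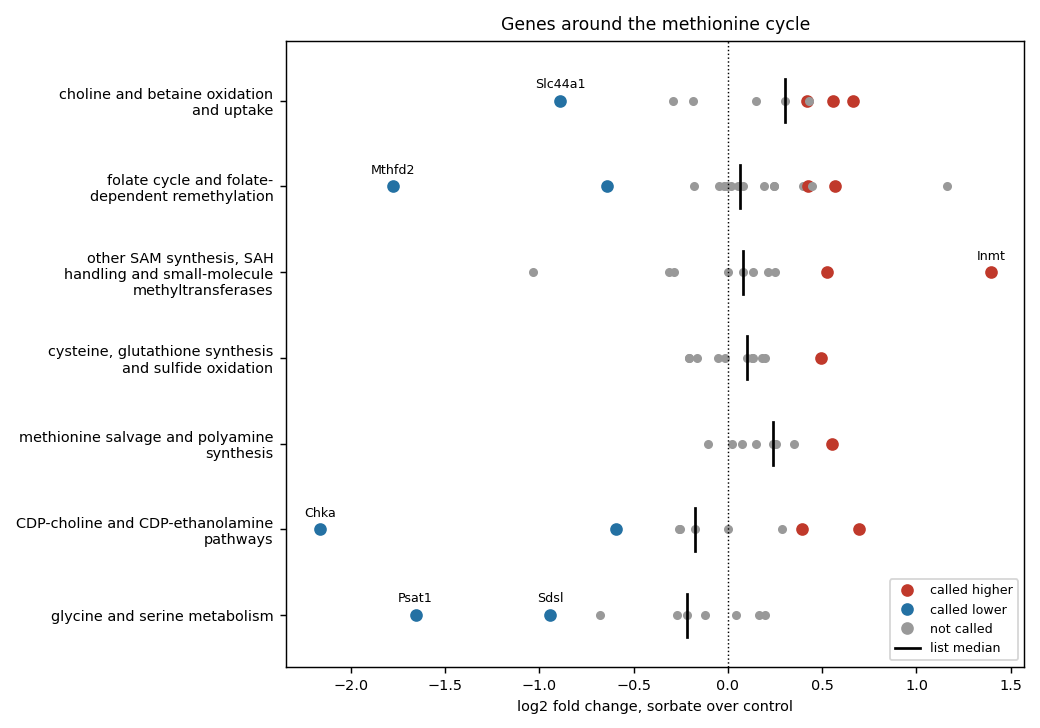
Log2 fold change, sorbate over control, of genes of the 7 lists around the methionine cycle, 1 point per gene shown, called higher in red, called lower in blue and not called in grey, with the median over all tested genes of each list as a black bar; the genes shown that were called with a change beyond 0.8 are named. Of the genes shown, Chka lies farthest to the left and Inmt farthest to the right.

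Of the 9 genes of choline and betaine oxidation and uptake, 3 rose and 1 fell, and the median was 0.30 on the log2 scale. The enzymes that make betaine from choline rose: Chdh, choline dehydrogenase, had 159.6 ± 9.21 CPM with sorbate and 119.4 ± 13.4 CPM in control (log2 fold change 0.42, edgeR adjusted p = 0.03362), and Aldh7a1, which oxidizes betaine aldehyde, had 430.8 ± 12.9 and 292.9 ± 51.0 CPM (0.56, edgeR adjusted p = 0.02698). Sardh, sarcosine dehydrogenase, which takes up the product of Gnmt, had 631.6 ± 63.4 CPM with sorbate and 398.2 ± 84.2 CPM in control (0.67, edgeR adjusted p = 0.0268). Slc44a1, a choline transporter, fell, with 25.3, 21.6, 26.4 and 28.2 CPM with sorbate, against 60.4, 39.2, 45.6 and 42.8 CPM in control (−0.89, edgeR adjusted p = 0.005355). The calls of Chdh, Aldh7a1 and Sardh held in only 1, 2 and 3 of the 8 leave-outs. All of these calls were lost with 1 surrogate variable (edgeR adjusted p = 0.1655, 0.1061 and 0.12). Without control 2, 5 of the 9 genes of this list were called higher and 2 lower, at a setting where 29.3% of all genes were called.

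Of 18 tested genes of the folate cycle and folate-dependent remethylation, 2 rose and 3 fell, with a median log2 fold change of 0.07. Fpgs, which adds the glutamate tail that keeps folates in the cell, had 110.0 ± 16.2 CPM with sorbate and 171.6 ± 13.5 CPM in control (−0.64, edgeR adjusted p = 0.01147). Mthfd2, a mitochondrial folate enzyme, was low throughout, with 1.06 ± 0.487 CPM with sorbate and 3.68 ± 1.44 CPM in control (−1.78, edgeR adjusted p = 0.01665). For Mthfd2, control 2 lay inside the sorbate range. Slc19a1, the reduced folate carrier, rose to 7.23 ± 1.04 CPM with sorbate, against 4.88 ± 0.122 CPM in control (0.57, edgeR adjusted p = 0.03695), and the other called gene that rose was Shmt2, the mitochondrial counterpart of Shmt1 (0.42, edgeR adjusted p = 0.03832), named here after its value was seen.

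Among 11 genes of other S-adenosylmethionine synthesis, S-adenosylhomocysteine handling and small-molecule methylation, 2 rose and 1 fell, and the median was 0.08 on the log2 scale. Inmt, indolethylamine N-methyltransferase, had 746, 891, 834 and 738 CPM in sorbate livers, against 412, 355, 302 and 152 CPM in control livers, without overlap (1.39, SE 0.26, edgeR adjusted p = 0.008252). Mat2b, the regulatory subunit of the Mat2a enzyme, had 37.4 ± 1.52 CPM with sorbate and 25.9 ± 5.95 CPM in control (0.53, edgeR adjusted p = 0.0419).

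Downstream of Cth, 1 of 11 genes of cysteine use, glutathione synthesis and sulfide oxidation rose and none fell. For this list and the 2 that follow, the share called among all genes tested was 12.4%. The median of the 11 genes was 0.10 on the log2 scale. The riser was Suox, sulfite oxidase, with 106.7 ± 4.10 CPM with sorbate and 75.9 ± 14.7 CPM in control (0.49, edgeR adjusted p = 0.03996). Its call held in only 1 of the 8 leave-outs. Of 9 genes of methionine salvage and polyamine synthesis, Adi1, a dioxygenase of the salvage pathway, rose, with 125.9 ± 5.76 CPM with sorbate and 85.9 ± 9.81 CPM in control (0.55, edgeR adjusted p = 0.01104), and the list median was 0.24. Of 9 genes of glycine and serine metabolism, 2 low-level genes fell and the median was −0.22. Sdsl, a serine dehydratase relative, had 9.48 ± 1.77 CPM with sorbate and 18.1 ± 6.40 CPM in control (−0.94, edgeR adjusted p = 0.03548), and Psat1, of serine synthesis, had 0.545 ± 0.242 and 1.73 ± 0.599 CPM (−1.66, edgeR adjusted p = 0.02341). In both, control 2 lay inside the sorbate range.

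The CDP-choline pathway is the alternative to Pemt for making phosphatidylcholine, and the CDP-ethanolamine pathway makes phosphatidylethanolamine, the substrate of Pemt. Together they held 2 genes that rose and 2 that fell among 9 tested, with a median log2 fold change of −0.18. Chka, choline kinase alpha, at the entry of the pathway, had 17.0, 17.4, 13.2 and 11.6 CPM in sorbate livers, against 100.4, 40.0, 63.1 and 62.8 CPM in control livers. It fell by 2.17 on the log2 scale (SE 0.25, edgeR adjusted p = 0.001213), with control 1 highest and control 2 lowest among the controls. Etnk1, ethanolamine kinase, fell to 68.9 ± 7.76 CPM, against 104.0 ± 20.9 CPM in control (−0.60, edgeR adjusted p = 0.03059), with control 2 inside the sorbate range. Pcyt1a, the rate-limiting enzyme of the pathway, had 73.8 ± 3.26 CPM with sorbate and 56.2 ± 4.89 CPM in control (0.39, edgeR adjusted p = 0.03007), and Chpt1, cholinephosphotransferase, had 144.4 ± 4.51 and 89.3 ± 23.2 CPM (0.69, edgeR adjusted p = 0.02016).

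Markers of the liver's cell types moved beside these genes, and their part in the results was not tested. In bulk tissue, fewer cells of a type and less RNA per cell cannot be told apart. The hepatocyte list was high in every library, with a summed level of 98480 to 122200 CPM with sorbate and 103500 to 123200 CPM in control, and 2 of its 10 genes fell (Fgb and Ambp). The pericentral hepatocyte markers summed to 9532 to 11080 CPM with sorbate, against 6248 to 7172 CPM in control, and 3 of 10 rose (Cyp2e1, Slc1a2 and Cyp1a2). Most of that difference lay in Cyp2e1, with a mean of 7033 CPM with sorbate and 3841 CPM in control, while Glul, Rgn, Lgr5 and Rhbg had negative log2 fold changes that were not called (−0.36, −0.13, −0.22 and −0.15). The periportal markers summed to 8894 to 9980 CPM with sorbate, against 6611 to 7976 CPM in control, where 2 of 10 rose (Etnppl and Gls2) and Ctsc fell. The Kupffer cell markers summed to 195.8 to 379.8 CPM with sorbate, against 272.7 to 659.0 CPM in control, and 6 of 10 fell, with control 2 the lowest control. Red cell markers fell in 5 of 7 tested genes and bile duct markers in 2 of 6. Monocyte and neutrophil markers fell in 2 of 4 and sinusoidal endothelial markers in 1 of 10. None of 10 stellate cell markers was called, nor was the 1 lymphocyte marker tested. Of all genes tested with all libraries, 12.4% were called, 6.14% higher and 6.3% lower. The summed levels of control 2 lay below those of the other controls for the red cell markers (337 CPM, against at least 535 CPM). The same held for the bile duct markers (63.4 against at least 132 CPM) and the monocyte and neutrophil markers (3.91 against at least 18.3 CPM). It also held for the sinusoidal endothelial markers (156 against at least 283.6 CPM) and the stellate cell markers (186.4 against at least 253 CPM). Their lowest sorbate sums were 169.2 and 211.9 CPM. For the hepatocyte markers, control 2 was at 103500 CPM, against at least 115100 CPM in the other controls. It was the highest control for the periportal markers (7976 CPM) and the lymphocyte markers (5.475 CPM). Without control 2, a setting where 29.3% of all genes were called, the Kupffer cell and the sinusoidal endothelial markers each fell in 9 of 10 genes. Of the red cell markers 6 of 8 fell and 1 rose, and of the monocyte and neutrophil markers 6 of 7 fell. Of 10 pericentral markers 4 rose and 1 fell, and of 10 periportal markers 5 rose and 1 fell. Of 10 hepatocyte markers 3 fell, of 7 bile duct markers 2 and of 10 stellate cell markers 1. The 1 lymphocyte marker was not called. No listed marker was at 0 in all 8 libraries.

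For each member, the genes most like it were taken by the correlation of log2 CPM deviations from the group means over the 8 libraries, among 7322 genes with a mean of at least 10 CPM. The likest genes were Fads6 for Ahcy (Pearson r 0.99), Zwint for Bhmt (0.98), Akr7a5 for Cbs (0.98) and Fgfr3 for Cth (0.98). Fads6, a fatty acid desaturase relative, also rose (log2 fold change 0.66, edgeR adjusted p = 0.02026), while Zwint, Akr7a5 and Fgfr3 were not called. These correlations share libraries and scaling and were picked as the highest of all genes compared, so they are descriptions without a test.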

How the data were processed

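The authors deposited raw read counts (whole numbers, not normalized) for 55487 Ensembl genes. HISAT2 2.1.0, Subread, FastQC and edgeR, and the build GRCm38, are named per the submitters' processing notes. Strand use in counting, the handling of reads with several matches and the annotation release were not given in the sources used here, so single-gene values of Ahcy and Bhmt, which have pseudogene copies, are uncertain. Per the labels' protocols, poly(A) RNA from snap-frozen liver was sequenced as single reads. The 8 libraries were grouped by the treatment in the labels, and replicate numbers, in accession order, are names alone. No batch is named. The table has 4 more columns of per-sample values, not matched to any sample and left unused.

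Counts were filtered (filterByExpr, minimum count 10), scaled by TMM factors and tested with edgeR 4.0.16 (quasi-likelihood, two-sided, R 4.3.3) with Benjamini-Hochberg adjustment over 13312 genes and a threshold of 0.05. The fit used 4 sorbate and 4 control libraries without covariates. The 4 within-library ratios were tested by exact permutation over 70 arrangements. Alternatives used DESeq2 1.42.0, limma 3.58.1 with sample quality weights, sva 3.50.0 with 1 surrogate variable, other scalings and filters, and each library left out. Pairs of libraries within a group differed by a chi-square of 24.84 to 238.2 per gene. Each library was counted as 1 replicate, but the chi-square cannot show whether the libraries came from separate animals. Coordinates, exon lengths and 50-base words come from GENCODE vM21 (GRCm38), where 55227 gene identifiers were found, and promoters from RefSeq (GRCm38.p6), where 7 of the 9 members matched.

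The members, pathway lists and marker lists were chosen with earlier results of these data known. All 9 members are named. From each pathway list the rule takes up to 4 called genes with the lowest p. For likeness it takes the nearest genes of each member, of which some are printed. Outside this rule, Dmgdh, which was not called, is named as the gene beside Bhmt2, and Shmt2 after its value was seen. In the pathway lists, 2 genes enter the counts and medians but are not reported singly here and not drawn.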

Additional observations from a re-analysis of the deposited data

Results flagged for a closer look

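The level of Cth in sorbate 3, 403.6 CPM, stood far above those of the other sorbate libraries (277.4 to 289.7 CPM), with a gap to its nearest neighbour that took a larger share of the group's range than Dixon's 95% critical value allows. It was the only such value among 26 groups of 4 examined, where about 1 in 20 groups would be marked by chance.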

How the results depend on the processing

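Bhmt and Ahcy kept their direction and their call in all 17 alternatives. The called genes numbered 1656, against 3912 with sample quality weights, 623 with 1 surrogate variable, 2451 with DESeq2 and 689 (without control 3) to 3968 (without control 2) on leaving out 1 library. The surrogate variable ran from 0.0604 to 0.289 in sorbate livers, and was 0.478 in control 2 but −0.513 to −0.36 in the remaining controls. Estimated from unscaled counts, a setting tried on these data before the scaled one was chosen, it gave 1617 called genes and 2 members called in each direction. Members called higher numbered 1 with the surrogate variable, 3 with quality weights and 1 to 3 on leaving out 1 library; members called lower numbered 1 with library size alone, 1 with the surrogate variable and 1 to 2 on leaving out 1 library. In edgeR's test, Cbs was not called with library size alone (−0.42, adjusted p = 0.07067) or the surrogate variable (−0.40, adjusted p = 0.1506). Nor was Cth with the surrogate variable (0.58, adjusted p = 0.1037). Shmt1 was called with quality weights (0.41, limma adjusted p = 0.02528), where control 2 had the lowest weight (0.309). With the surrogate variable Shmt1 was at 0.06 and not called (edgeR adjusted p = 0.8755). The uncalled Gnmt value changed sign: 0.002226 with relative log expression scaling, 0.1241 with library size alone, 0.006607 with no filter, 0.002219 with DESeq2, 0.08924 with the surrogate variable, 0.002342 with that from unscaled counts, and −0.0759 to 0.1371 on leaving out 1 library. The ratio of Mat1a to Mat2a ranged from −0.1366 to 0.3143 on leaving out 1 library, negative without control 2. The cause of these changes was not tested. With library size alone, the all-gene median was 0.106 on the log2 scale, against −0.0188 with TMM. Of 146 member fold changes in alternatives, 120 kept direction and side of the threshold, 15 lost the call, 2 gained it and 9 changed sign. No paired analysis was possible because the replicate numbers follow accession order and pair nothing.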
